A study of Nicotiana tabacum with 32 samples.

Results

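The transcripts described here were those read by 334 spots of a potato cDNA array that wild-type tobacco cells raised at least 2-fold after 4 h with harpin and also after 4 h with megaspermin, both microbial elicitors of defence. A spot was taken if it carried no gene symbol or a symbol starting with LOC (a numbered locus without a descriptive name), if at least 2 of the 3 arrays of each wild-type comparison had a value, and if the mean log2 ratio was 1 or more in both. The 334 raised spots were 3.58% of the 9331 spots that carried no other symbol and had enough values, and the whole array held 32448 spots. They represented 205 cDNA clones, since clones are printed in duplicate: both spots of 129 clones met the rule, and 1 spot of 76. No symbol was attached to 304 of the raised spots, 28 carried 1 LOC symbol (13 symbols, 17 clones) and 2 carried several, so most members can be named here only by their spot number.

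SIPK, the salicylic acid-induced protein kinase of tobacco, is a mitogen-activated protein kinase that is switched on within minutes by wounding, by reactive oxygen and by pathogen elicitors, and that lies upstream of defence gene transcription and of the hypersensitive response, a rapid local cell death. Harpins are glycine-rich, heat-stable proteins exported by plant-pathogenic bacteria such as Pseudomonas syringae. Megaspermin is an elicitin-type protein of the oomycete Phytophthora megasperma. Both are known to trigger defence responses and cell death in tobacco. Xanthine oxidase acting on xanthine releases superoxide and is used as an extracellular source of reactive oxygen.

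RNA of dark-grown cell suspensions of Nicotiana tabacum (Xanthi) was compared on 2-colour arrays, 3 per group, each carrying both samples of the comparison. On 24 arrays SIPK-silenced cells (SIPK-Ri, by RNA interference) were set against wild-type cells given the same treatment, in 8 conditions: a biotic control at 0 h, harpin at 4 h and 8 h, megaspermin at 4 h and 8 h, an abiotic control at 0 h, and xanthine with xanthine oxidase at 4 h and 8 h. The abiotic set, its control included, had been preincubated with xanthine for 30 min. On 6 further arrays the wild type alone was examined, 4 h of harpin or of megaspermin being set against the biotic control at 0 h, and 2 arrays repeated the abiotic control and the wild-type harpin comparison with the dyes exchanged. Cells of each genotype were pooled and then divided into portions before treatment, so the spread between arrays is that between portions of 1 pool of each genotype. Every control was taken at 0 h, so a treatment and the time that passed cannot be told apart. Megaspermin is labelled as coming from P. megasperma on the arrays with silenced cells and from P. syringae on the wild-type arrays. Values are log2 ratios, read as silenced over wild type or, within the wild type, 4 h of elicitor over 0 h; that reading is likely from the labels' query and reference channels but was not stated for the table.

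Between 8258 and 21105 spots had a value on an array, and replicate arrays correlated at 0.648 to 0.908 over spots. Of the raised spots, 287 to 334 had a value on each array with silenced cells. The symbol SIPK stood on 0 spots, so these arrays give no value for the silenced gene. The labels name 1 kind of cell. Of the symbols for green tissue only PSBR was on the array (12 spots), and of those for storage organs only GBSS (4 spots), so the arrays hold few markers by which to check that label.

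The responses of the wild-type cells chose the members: the spots were selected on the mean log2 ratios of these 6 arrays, which are given as a description, with no test. With harpin the means of the 334 spots ran from 1.01 to 4.40 (median 1.45, against 0.04 for all 9331 spots), and with megaspermin from 1.01 to 4.197 (median 1.66, against -0.01). All 334 were above 0 on every measured harpin array and 323 on every measured megaspermin array. Harpin gave the smaller mean at 222 spots and the larger at 112. The arrays were not alike: the median of the raised spots was 1.20, 1.58 and 1.60 on the harpin arrays and 1.70, 2.04 and 1.36 on the megaspermin arrays. Just inside the threshold lay spots 151461, 138622 and 160747, whose smaller means were 1.006, 1.006 and 1.009. Just outside lay 133164, 146546 and 147702, at 0.9997, 0.996 and 0.992. The size of the set depended on single arrays, and without the second wild-type harpin array 218 spots met the rule.

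**Figure D1:**
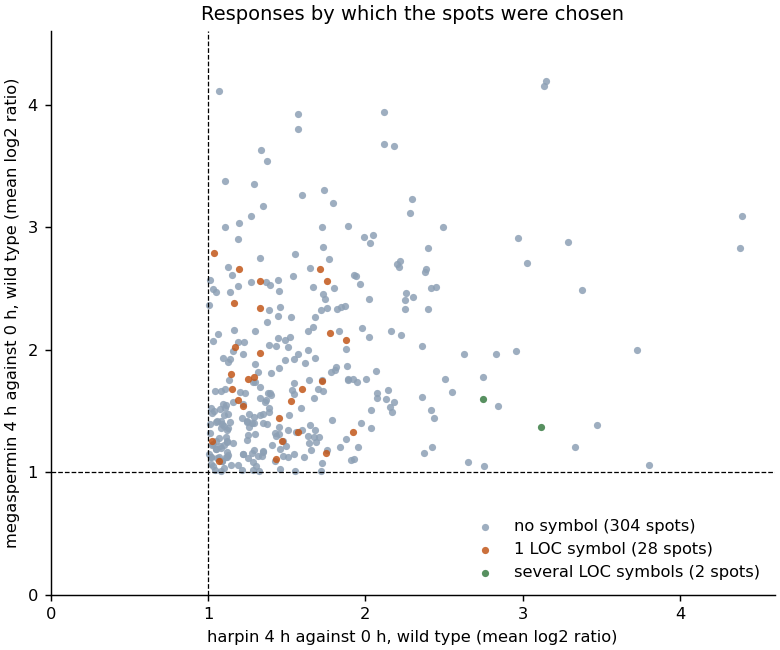
Mean log2 ratio of each of the 334 raised spots with megaspermin (vertical) against harpin (horizontal), 4 h over 0 h in wild-type cells, 2 or 3 arrays a mean. Dashed lines mark the threshold of 1 that chose the spots, and colours separate spots with no symbol (304), 1 LOC symbol (28) and several LOC symbols (2).

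An array that the rule did not use gave the same direction. On the dye-exchanged harpin array 305 raised spots had a value, all of them above 0, with a median of 1.62 and a range of 0.65 to 5.02. There 279 of them (91.5%) were at 1 or more, against 12.4% of the 7705 spots without another symbol that were measured there. This array has no replicate, and whether its RNA was that of the other harpin arrays is not stated. Of the 76 clones with a single member, 48 had a partner spot with enough values, and all 48 partners were above 0 with both elicitors (median of the smaller mean 0.87); they hold the same cDNA and were read on the same 6 arrays, so they give no independent support.

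Among the 6 spots with the largest smaller response, each clone taken once, spot 140295 read 2.96, 3.35 and 3.14 with harpin and 4.28, 5.07 and 3.24 with megaspermin in wild-type cells. Spot 159301 read 3.93, 5.14 and 4.11 with harpin and 3.17, 4.03 and 2.07 with megaspermin. All of these values were above 2. Spot 151465 read 2.62, 3.62 and 3.62 with harpin and 2.91, 3.66 and 2.07 with megaspermin, and 138135 read 2.05, 2.99 and 2.43 and 3.52, 3.69 and 1.79. Spots 160022 and 140555 each lacked 1 value in both comparisons. Spot 160022 read 2.94 and 3.00 with harpin and 2.31 and 3.52 with megaspermin. Spot 140555 read 2.76 and 2.13 with harpin and 2.31 and 2.72 with megaspermin. In silenced cells these spots parted ways. At the biotic control 140295 was higher in silenced cells (log2 1.496 ± 0.20, adjusted p = 1.59e-06, limma, as in all tests below, with the standard error of the fit after ±), whereas 159301 was lower (-1.07 ± 0.24, adjusted p = 0.00124) and 160022 was not called (0.16 ± 0.17, adjusted p = 0.545).

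In the silenced cells the raised spots leaned upward in 4 of the 8 conditions and downward in 1. In the 3 abiotic conditions and with harpin at 8 h the median log2 ratio of silenced over wild-type cells was 0.30 to 0.55, against -0.02 to 0.01 for all spots tested. With megaspermin at 4 h it was -0.27, against 0.02, and -0.14 without the second array of that group. In the biotic control, with harpin at 4 h and with megaspermin at 8 h it lay near 0 (0.00, 0.01 and 0.02). A spot was called where its adjusted p (Benjamini-Hochberg over all spots tested in that contrast) was under 0.05. Calls in either direction were made at 155 of 333 raised spots in the biotic control, against 27.6% of all spots. With harpin they were made at 135 of 334 at 4 h, against 31.2% of all spots, and at 191 of 330 at 8 h, against 44.6%. With megaspermin they were made at 158 of 334 at 4 h, against 31.9%, and at 196 of 332 at 8 h, against 36.6%. In the abiotic control they were made at 150 of 331, against 21%, and with xanthine oxidase at 161 of 309 at 4 h, against 33.9%, and at 177 of 299 at 8 h, against 38%. By array, the medians of the raised spots were 0.37, 0.38 and 0.37 with harpin at 8 h and 0.44, 0.44 and 0.44 with xanthine oxidase at 4 h, the 3 arrays of a group lying close together. With megaspermin at 4 h they were -0.16, -0.45 and -0.16, the second array standing lowest. The 24 medians of all spots lay between -0.07 and 0.01.

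**Figure D2:**
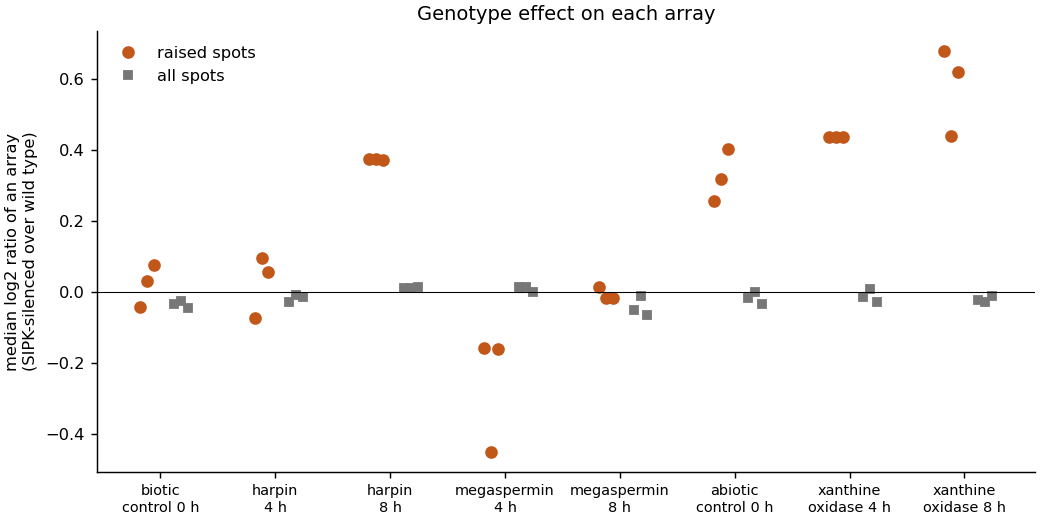
Median log2 ratio, SIPK-silenced over wild type, of the raised spots (orange circles) and of all measured spots (grey squares) on each of the 24 arrays, 3 arrays per condition. With harpin at 8 h and in the 3 abiotic conditions the lowest array median of the raised spots is 0.255, and with megaspermin at 4 h all 3 arrays are below 0.

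**Figure D3:**
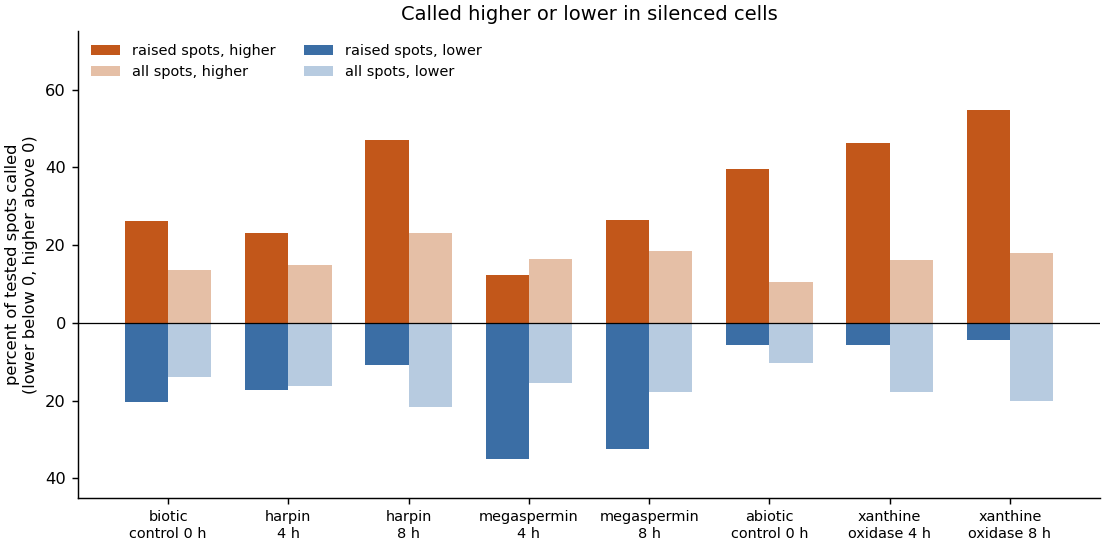
Percentage of tested spots called higher (above the line) or lower (below the line) for SIPK-silenced over wild-type cells, for the raised spots (dark bars) and for all spots (pale bars), by condition. With xanthine oxidase at 8 h 54.8% of the raised spots are called higher and 4.35% lower.

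In the biotic control, before any elicitor, 87 of the 333 raised spots tested were higher in silenced cells (26.1%, against 13.5% of all 19293 spots) and 68 were lower (20.4%, against 14%). Spot 160203 read 4.63, 3.79 and 3.10 on the 3 arrays, 14.3-fold higher in silenced cells (3.84 ± 0.27, adjusted p = 9.01e-12). Spot 135952 read 3.68, 3.47 and 3.44, 11.5-fold higher (3.53 ± 0.16, adjusted p = 2.27e-16). At the other end, spot 136565 read -2.47, -2.55 and -1.90, 4.94-fold lower (-2.31 ± 0.22, adjusted p = 4.99e-09), and 142816 read -2.77, -2.04 and -1.96, 4.77-fold lower (-2.26 ± 0.20, adjusted p = 7.41e-10). Wild-type cells of the 0 h biotic control are the denominator on these arrays and on those that chose the spots. Wild-type cells after 4 h of elicitor are the numerator on those that chose the spots and the denominator on the 4 h arrays with silenced cells. Whether the RNA was the same is not stated. Its part in the counts of the biotic control and both 4 h conditions, and in every result that uses them, was not tested. The 8 h and abiotic arrays carry other wild-type samples.

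With harpin at 4 h 77 of 334 raised spots were higher (23.1%, against 14.9% of 15106) and 58 lower (17.4%, against 16.3%), 37 being lower without the first array of that group. Spot 160203 was again the highest, at 2.47, 1.86 and 3.28 (2.53 ± 0.27, adjusted p = 2.79e-08), followed by 149938 at 2.13, 1.996 and 1.89 (2.004 ± 0.15, adjusted p = 3.99e-11). Spot 143738 was the lowest, at -2.62, -2.21 and -2.35 (-2.39 ± 0.19, adjusted p = 9.18e-10). Its duplicate 144582 aside, 145164 came next at -2.11, -1.65 and -1.79 (-1.85 ± 0.21, adjusted p = 6.29e-08). At 8 h of harpin the balance had moved upward: 155 of 330 raised spots were higher (47%, against 23% of 14731) and 36 lower (10.9%, against 21.6%). Spot 160203 was highest once more (3.55 ± 0.27, adjusted p = 2.22e-11). Next came spot 159417 at 2.63, 2.65 and 2.66, 6.27-fold higher in silenced cells (2.65 ± 0.30, adjusted p = 1.18e-07), and its 3 values hardly differed. Taking each clone once, the lowest were 144582 at -1.74, -1.93 and -1.52 (-1.73 ± 0.20, adjusted p = 1.52e-07) and 141972 at -1.77, -1.66 and -1.65 (-1.69 ± 0.24, adjusted p = 1.52e-06). The 8 h effect differed from the 4 h effect at 94 of 330 raised spots (against 19.6% of all spots), more positive at 8 h in 85 of 330 (25.8%, against 9.87% of 13390) and more negative in 9 (2.73%, against 9.75%), or in 3 without the first harpin array at 8 h. This difference contains the 4 h arrays, whose wild-type condition helped choose the spots. How far the choice set its direction was not tested.

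Megaspermin gave the opposite lean at 4 h. There 117 of 334 raised spots were lower in silenced cells (35%, against 15.6% of 14576) and 41 were higher (12.3%, against 16.3%). Without the second array of that group 72 were lower, and 25 were higher without the first and 27 without the third. Spot 144582 read -2.48, -2.44 and -2.70, 5.81-fold lower (-2.54 ± 0.20, adjusted p = 6.02e-10), and 137450 read -2.003, -2.47 and -1.65 (-2.04 ± 0.16, adjusted p = 9.54e-10). Spots 160203 at 2.57, 2.95 and 1.96 and 148951 at 2.30, 1.66 and 1.75 were the highest (2.50 ± 0.27, adjusted p = 3.48e-08, and 1.90 ± 0.22, adjusted p = 1.32e-07). At 8 h 88 of 332 raised spots were higher (26.5%, against 18.6% of 17546) and 108 lower (32.5%, against 17.9%); without the second array of that group 54 were higher and 71 lower. Spots 159417, at 2.08, 2.94 and 2.46 (2.49 ± 0.30, adjusted p = 6.88e-07), and 140097, at -1.35, -2.02 and -1.61 (-1.66 ± 0.16, adjusted p = 8.01e-09), marked the ends. Taking each clone once, 147007 lay next to the lower one at -0.61, -1.99 and -1.67 (-1.42 ± 0.27, adjusted p = 0.000109). The genotype effect was more positive at 8 h than at 4 h in 71 of 332 (21.4%, against 8.99% of 13730) and more negative in 24 (7.23%, against 6.74%). Those 95 calls (against 15.7% of all spots) became 58 without the second megaspermin array at 4 h and 61 without the second at 8 h. The more positive ones numbered 39 without the second at 4 h, and the more negative ones 15 without the first at 4 h and 12 without the second at 8 h. Here too the wild-type condition at 4 h helped choose the spots, and its part in the direction was not tested.

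Set against each other, the elicitors differed at the same time point. At 4 h the genotype effect was more positive with harpin than with megaspermin at 73 of 334 raised spots (21.9%, against 7.86% of 13104) and more negative at 13 (3.89%, against 8.82%), 86 calls in all (against 16.7% of all spots). Without the second megaspermin array at 4 h the counts were 48 and 6. The more negative ones also numbered 7 without the first array of either elicitor and 8 without the second harpin array. Both wild-type conditions at 4 h, whose means chose the spots, enter this difference. Harpin had the smaller of those means at 222 spots and the larger at 112. How far the choice set the direction was not tested. At 8 h the difference was positive at 120 of 329 (36.5%, against 12.4% of 13854) and negative at 16 (4.86%, against 15.5%), 136 calls in all (against 27.9% of all spots). Spot 148542 read 1.13, 1.10 and 1.21 with harpin at 4 h and -0.44, -1.10 and -0.72 with megaspermin at 4 h. The arrays of the 2 elicitors did not overlap at this spot (difference 1.90 ± 0.20, adjusted p = 1.27e-06).

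Calls in the abiotic set were mostly upward. In its control 131 of 331 raised spots were higher in silenced cells (39.6%, against 10.6% of 20912) and 19 were lower (5.74%, against 10.4%), those lower being 12 without the first array and 8 without the third. With xanthine oxidase at 4 h 143 of 309 were higher (46.3%, against 16.1% of 15856) and 18 lower (5.83%, against 17.9%), and at 8 h 164 of 299 were higher (54.8%, against 18% of 14945) and 13 lower (4.35%, against 20%). The dye-exchanged array of the abiotic control, which was not in the fit, had a median of 0.18 over 325 raised spots, 64% of them above 0, against a median of -0.06 over all spots. Spot 135952 read 3.28, 3.45 and 3.57 in the control, 3.23, 3.32 and 3.23 at 4 h and 3.41, 3.67 and 3.41 at 8 h. All 9 values were above 3, and the fitted effects were 3.43 ± 0.16, 3.26 ± 0.16 and 3.50 ± 0.16 (adjusted p = 6.73e-16, 2.76e-15 and 2.25e-16). Among the few spots that were lower, 131410 read -1.47, -1.52 and -1.95 at 4 h and -1.88, -2.01 and -2.45 at 8 h (-1.65 ± 0.17, adjusted p = 1.57e-08, and -2.11 ± 0.17, adjusted p = 1.36e-10), and its duplicate 132254 was lower in the control (-1.76 ± 0.15, adjusted p = 8.36e-10). Spot 138494 was lower at 8 h (-1.07 ± 0.15, adjusted p = 1.41e-06).

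In all 3 abiotic conditions 109 of 293 raised spots were called higher (37.2%, against 10.2% of 13924) and 8 were called lower (2.73%, against 10.2%). The 109 spots represented 68 clones. Counts over several conditions, and the spots named for them, here and in the paragraphs that follow, were chosen after the values were seen. Few raised spots were called in the step from the abiotic control to xanthine oxidase. At 4 h limma called a changed genotype effect at 0 of 309 raised spots, against 0.0127% of 15803 spots upward, 0.0127% downward and 0.0253% in all. At an unadjusted p under 0.05 there were 29 (9.39%, against 7.56% of all spots). With array weights 18 were called (against 3.51% of all spots), after scaling the arrays to a common spread 7 (3 upward, 4 downward, against 0.677%), and with duplicate spots averaged 1 clone (against 0.0563%). At 8 h the change was called upward at 9 of 298 (3.02%, against 0.202% of 14851) and downward at 0 (0%, against 0.114%), with 0.316% of all spots called in all. After scaling the arrays 18 were called, 8 upward and 10 downward (against 1.06% of all spots), and with array weights 31 (against 2.61%). Leaving out single arrays gave 3 to 15 calls at 8 h, with 3 without the first abiotic control array, 4 without the second, 5 without the third, 3 without the third xanthine oxidase array and 15 without the second. LOC102600029 had the largest change there (1.99 ± 0.21, adjusted p = 5.31e-06 at spot 133229).

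The controls of the 2 sets, both at 0 h, differed at 65 of 330 raised spots (against 3.2% of all spots), 11 of 330 with a more positive effect in the biotic control (3.33%, against 1.6% of 18916) and 54 with a more positive effect in the abiotic control (16.4%, against 1.61%). That total was 40 without the first biotic control array and 43 without the second abiotic one. Without the first biotic control array 7 were more positive in the biotic control and 33 in the abiotic one, and 33 in the abiotic one without the second abiotic array. The total was 114 after scaling (against 7.8% of all spots), 135 with array weights (against 12.2%) and 99 with only these groups in the fit (against 5.36%). The abiotic set had the xanthine preincubation, and the labels do not say whether the sets shared a day or a batch of cells, so these cannot be told apart. The wild-type condition of the biotic control also helped choose the spots, and its part in this difference was not tested.

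The changes from the biotic control share its 3 arrays and are given side by side. Those at 4 h set the response of silenced cells against that of wild-type cells, which chose the spots. Those at 8 h also contain the wild-type biotic control at 0 h, the denominator on the arrays that chose the spots. How far the choice set the direction of the changes at either time was not tested. Among the spots lowered 2-fold by both elicitors, 70 of 495 were more positive with harpin at 4 h and 8 more negative. With megaspermin at 4 h 242 of 480 were more positive and 5 more negative. At 8 h the counts were 8 and 239 of 490 with harpin and 290 and 3 of 470 with megaspermin. In all, 112 of 333 raised spots were called with harpin at 4 h (against 13.3% of all spots), 123 of 329 with harpin at 8 h (against 16.9%), 132 of 333 with megaspermin at 4 h (against 16.8%) and 155 of 331 with megaspermin at 8 h (against 25%). With harpin at 4 h the genotype effect was called more positive than in the control at 46 of 333 raised spots (13.8%, against 5.91% of 14850) and more negative at 66 (19.8%, against 7.41%). With harpin at 8 h it was more positive at 91 of 329 (27.7%, against 7.37% of 14448) and more negative at 32 (9.73%, against 9.5%). With megaspermin at 4 h it was more positive at 28 of 333 (8.41%, against 8.83% of 14174) and more negative at 104 (31.2%, against 7.97%), and at 8 h at 59 of 331 (17.8%, against 13.3% of 16678) and 96 (29%, against 11.7%). Without the first biotic control array the more positive changes numbered 60 with harpin at 8 h and 38 with megaspermin at 8 h. The largest upward changes were at 148542 with harpin at 4 h (2.55 ± 0.20, adjusted p = 1.53e-08), at 143051 with harpin at 8 h (3.52 ± 0.36, adjusted p = 6.79e-07), at 138494 with megaspermin at 4 h (2.10 ± 0.21, adjusted p = 4.09e-08) and at 159417 with megaspermin at 8 h (2.71 ± 0.42, adjusted p = 5.09e-05). The largest downward changes were all of 1 clone, at spot 135108 with harpin (-2.87 ± 0.27, adjusted p = 4.25e-08 at 4 h, -3.21 ± 0.27, adjusted p = 1.53e-09 at 8 h) and at its duplicate 135952 with megaspermin (-3.79 ± 0.22, adjusted p = 1.34e-12 at 4 h, -3.59 ± 0.22, adjusted p = 4.9e-12 at 8 h).

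That clone was high in silenced cells without elicitor and nearer to wild type with it. After the biotic control values above, spot 135952 read 0.88, 0.99 and 0.36 with harpin at 4 h and 0.21, 0.26 and 0.56 at 8 h, -0.47, -0.11 and -0.22 with megaspermin at 4 h and 0.38, -0.62 and 0.06 at 8 h. In wild-type cells it had read 1.32, 1.70 and 1.98 with harpin and 2.21, 2.49 and 1.86 with megaspermin. Being higher in both controls and higher in none of the 4 elicitor conditions was found at 11 of 325 raised spots (3.38%, against 1.25% of 11803 spots), in 7 clones. Spot 135952 is not among them, since it was still higher with harpin at 4 h (0.74 ± 0.16, adjusted p = 0.000462), a call lost once a dye term was fitted.

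Spot 138135, a strong responder in wild-type cells, is among the 11. In the biotic control it read 2.003, 2.35 and 1.77, with harpin -0.17, -0.26 and 0.22 at 4 h and 0.12, 0.17 and 0.11 at 8 h, and with megaspermin -1.92, -1.53 and -1.03 at 4 h and -0.93, -1.12 and -0.81 at 8 h. It was higher in silenced cells without elicitor (2.04 ± 0.26, adjusted p = 5.28e-07), not called with harpin, and lower with megaspermin (-1.49 ± 0.26, adjusted p = 5.53e-05 at 4 h, -0.96 ± 0.26, adjusted p = 0.00495 at 8 h). In the abiotic control it read 2.39, 3.24 and 3.33, with xanthine oxidase 2.85, 2.50 and 2.42 at 4 h and 3.59, 2.30 and 2.10 at 8 h, 7.93-fold higher in the control (2.99 ± 0.26, adjusted p = 7.73e-10). No value of the abiotic set overlapped those with elicitor. Its duplicate 137291 gave the same calls, at 1.92 ± 0.31 in the biotic control, -1.60 ± 0.31 with megaspermin at 4 h and 2.76 ± 0.31 in the abiotic control, its call with megaspermin at 8 h being lost without the first array. Spot 140555, another strong responder, was higher in both controls (1.62 ± 0.22 biotic, 2.43 ± 0.18 abiotic) and lower with megaspermin at 4 h (-1.47 ± 0.18); 1 array with harpin at 8 h had a value, which was not tested.

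**Figure D4:**
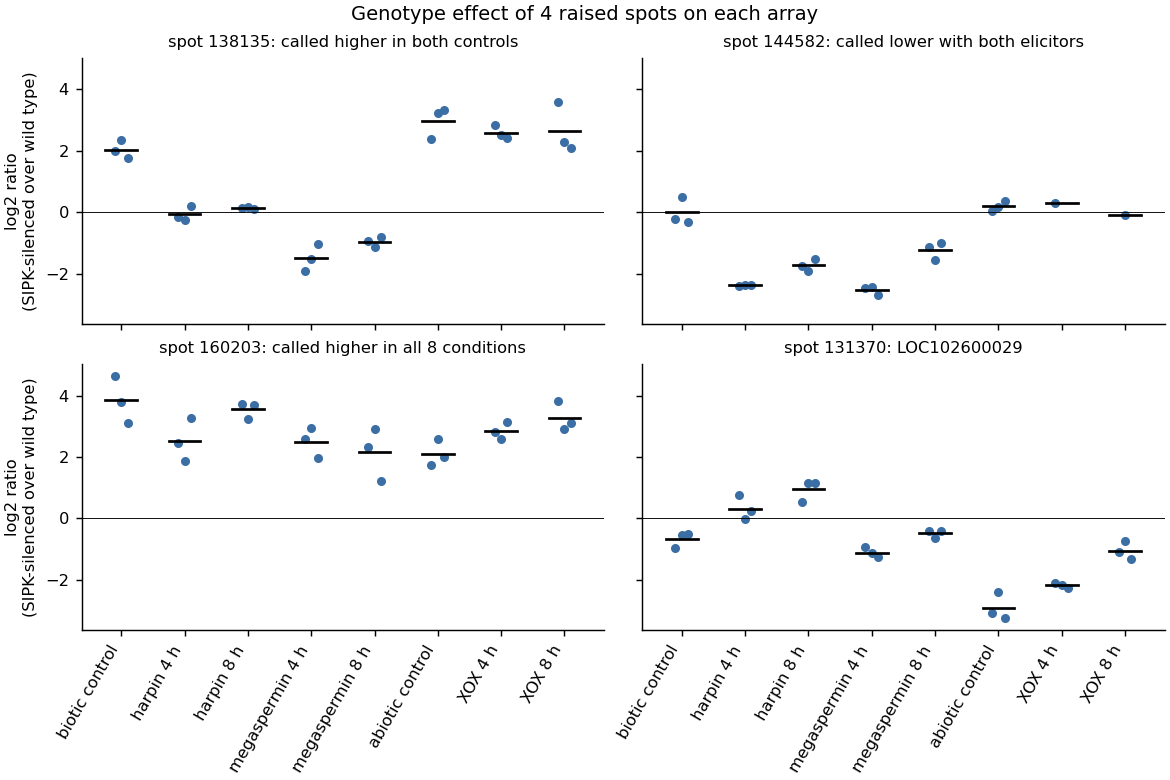
Log2 ratio, SIPK-silenced over wild type, of 4 raised spots on each array (points) with the mean of each group (bar); XOX is xanthine oxidase with xanthine. Spot 138135 is high in both controls and with XOX and near or below 0 with elicitors, 144582 is low with elicitors and near 0 in both controls, 160203 is high in all 8 conditions, and 131370 (LOC102600029) has its lowest mean in the abiotic control.

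Few raised spots were called in the same direction in all 4 elicitor conditions and in neither control. Spots called with only some of the elicitor conditions and in neither control were not counted. In all 4 elicitor conditions 16 of 329 raised spots were lower (4.86%, against 3.47% of 11943) and 14 higher (4.26%, against 4.54%), shares near those of all spots. Of the 16, the 4 that were called in neither control (1.23% of 325, against 0.525% of 11803) were 140097, 143738, 144582 and 160851, of which 143738 and 144582 are 1 clone. Spot 144582 read -0.22, 0.50 and -0.31 in the biotic control, -2.40, -2.37 and -2.37 with harpin at 4 h and -1.74, -1.93 and -1.52 at 8 h, and -2.48, -2.44 and -2.70 with megaspermin at 4 h and -1.14, -1.55 and -1.01 at 8 h. The 12 values with elicitor were all under -1 and the 6 of the controls all above -0.4 (abiotic control 0.05, 0.17 and 0.35). In wild-type cells this spot had read 1.54, 1.83 and 2.44 with harpin and 2.86, 3.25 and 1.70 with megaspermin. Its effect was nearer 0 at 8 h than at 4 h of megaspermin (1.31 ± 0.29, adjusted p = 0.00362). Spot 140097 read 0.12, 0.24 and 0.78 in the biotic control, -1.94, -1.66 and -1.86 with harpin at 4 h and -1.35, -1.82 and -1.45 at 8 h, -0.83, -0.78 and -0.93 with megaspermin at 4 h and -1.35, -2.02 and -1.61 at 8 h. The 4 spots higher in all 4 elicitor conditions and called in neither control were 134029, 135888, 152442 and 160980, with effects of 0.42 to 1.21 (1.23% of 325, against 0.754% of 11803). With harpin at 4 h the calls of 160851, 134029 and 160980 were lost without the first or the third array, and with megaspermin at 4 h that of 152442 when any 1 of the 3 arrays was left out.

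Spot 160203 was the extreme of the opposite kind. It lay just past the rule in wild-type cells, at 1.05, 0.90 and 1.27 with harpin and 1.20 and 1.04 with megaspermin, yet read 3.71, 3.23 and 3.70 with harpin at 8 h and 3.83, 2.91 and 3.10 with xanthine oxidase at 8 h in silenced over wild-type cells. Its 24 values were all above 1. Calls upward in all 8 conditions were made at 7 of 289 raised spots (2.42%, against 2.51% of 10964), a share like that of all spots, and downward in all 8 at 0 (0%, against 1.83%). Averaged over the 8 conditions 155 of 289 were higher (53.6%, against 36.7% of 10964) and 66 lower (22.8%, against 35.7%), for 221 calls in all (against 72.4% of all spots). Once both dye-exchanged arrays were fitted together with a term for dye, 112 were higher and 34 lower. Without them, the 24 arrays with silenced cells had the same dye orientation, so genotype and dye cannot be told apart in the genotype effects. The dye-exchanged abiotic control array correlated at 0.597 to 0.684 with the arrays of its group. Of the 289, 111 were called higher in at least 1 condition and lower in at least 1 other (38.4%, against 17.6% of the 10964). Another 104 were called only higher (36%, against 35.3%), 64 only lower (22.1%, against 35.2%) and 10 in none (3.46%, against 11.9%).

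The raised spots with a LOC symbol did not move as 1 group. LOC102577712, read by 2 clones, was higher in silenced cells in nearly every condition. Its spot 142744 read 2.59, 2.30 and 2.12 in the biotic control (2.34 ± 0.22, adjusted p = 1.21e-09) and 2.13, 1.98 and 1.94 with xanthine oxidase at 8 h (2.02 ± 0.22, adjusted p = 1.28e-08). All 4 of its spots were called higher in the 8 conditions except 135338 with megaspermin at 8 h (0.30 ± 0.14, adjusted p = 0.0898), where the other 3 were not called without the second array. In wild-type cells 142744 had read 2.21, 1.49 and 1.93 with harpin and 2.16, 1.91 and 2.17 with megaspermin.

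LOC102593050, also on 2 clones, was higher chiefly with harpin at 8 h. Spot 145176 read -0.12, -0.03 and 0.25 in the biotic control, 0.94, 0.21 and 0.31 with harpin at 4 h and 1.89, 2.18 and 2.18 at 8 h. The 8 h arrays lay above all others, and the difference from 4 h was called (1.60 ± 0.28, adjusted p = 0.000166), as was that from megaspermin at 8 h (1.60 ± 0.28, adjusted p = 8.07e-05). All 4 spots of the symbol were called with harpin at 8 h (1.76 to 2.08) and with xanthine oxidase at 8 h (0.55 to 1.22), and none in the biotic control or with harpin at 4 h; with xanthine oxidase at 8 h the calls of 145176 and 147035 were lost without the third array. LOC102588225 was higher with harpin at 8 h and with megaspermin at both times (spot 142475: 1.31 ± 0.37, adjusted p = 0.00547, 1.12 ± 0.37, adjusted p = 0.0228 and 1.34 ± 0.37, adjusted p = 0.00594). The call with megaspermin at 4 h was lost without the first or the third array, and all 3 were lost with a dye term. Its wild-type values were uneven, at 0.59, 3.08 and 2.09 with harpin and 1.70, 2.85 and -0.56 with megaspermin.

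LOC102600029 was lower throughout the abiotic set. Spot 131370 read -0.98, -0.55 and -0.51 in the biotic control, and -3.07, -2.40 and -3.26 in the abiotic control, -2.11, -2.18 and -2.28 with xanthine oxidase at 4 h and -1.11, -0.72 and -1.32 at 8 h. The arrays of the 2 controls did not overlap. Its duplicate 133229 was 8.33-fold lower in silenced cells in the abiotic control (-3.06 ± 0.15, adjusted p = 4.02e-15). With harpin at 8 h both spots were higher (0.95 ± 0.16 and 0.88 ± 0.15), and with megaspermin at 4 h both were lower (-1.12 ± 0.16 and -0.89 ± 0.15). Both were also called lower with megaspermin at 8 h, calls that were lost without the second array. The controls of the 2 sets differed at both (biotic minus abiotic 2.23 ± 0.23, adjusted p = 2.67e-07 at 131370).

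The effects at the other LOC symbols varied in size. LOC102587932, with 5 spots of 3 clones, was lower with megaspermin at 8 h at all 5 (-0.74 to -0.46) and was not called in the biotic control or with harpin. Of these, the call of 137632 was lost without the second megaspermin array and that of 146880 without the first or the third. With xanthine oxidase 3 of its spots were lower at 4 h and 3 were higher at 8 h; all 3 calls at 4 h were lost without the third array and 2 of those at 8 h without the first. LOC102605073 was lower with megaspermin at 4 h (-0.53 ± 0.14 and -0.72 ± 0.15 at its 2 spots). It was higher in all 3 abiotic conditions (0.72 ± 0.14 and 0.72 ± 0.15 in the control). LOC102577784 (spot 151923), whose wild-type response was 0.92, 0.95 and 1.25 with harpin and 2.90, 3.07 and 2.41 with megaspermin, was lower with megaspermin at 4 h (-1.01 ± 0.14, adjusted p = 2.57e-06) and higher with harpin at 8 h (0.77 ± 0.14, adjusted p = 7.18e-05). LOC102577570 was called higher with megaspermin at 8 h (0.89 ± 0.13) and in the abiotic set (1.05 to 1.33). LOC102577692 was higher with harpin at 8 h (1.69 ± 0.16) and LOC102577801 likewise (0.88 ± 0.17 and 0.85 ± 0.22). LOC102598898 was higher in all 3 abiotic conditions (0.61 ± 0.16 and 0.67 ± 0.16 in the control). LOC102577685 was lower with megaspermin (-0.36 ± 0.14 at 4 h, -0.54 ± 0.14 at 8 h), and LOC102577672 with megaspermin at 4 h (-0.49 ± 0.14) and harpin at 8 h (-0.44 ± 0.14). Both spots with several LOC symbols, 161702 and 162546, were higher in every condition tested except harpin at 4 h (0.82 ± 0.34, adjusted p = 0.0688 at 161702). Several of these calls depended on single arrays. Those of 142544, 144669 and 141328 with megaspermin at 4 h were lost without the second array (142544 and 144669) or the third (141328). That of 141328 with harpin at 8 h was lost without the first or the second, and those of LOC102598898 without the third abiotic control array. The calls of 162546 in the controls and those of 161702 with xanthine oxidase were also lost without single arrays. These numbered loci were assigned to spots of a potato array, and only a tobacco annotation was available, in which their numbers could not be looked up. For want of a potato annotation, no function is given for them.

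**Figure D5:**
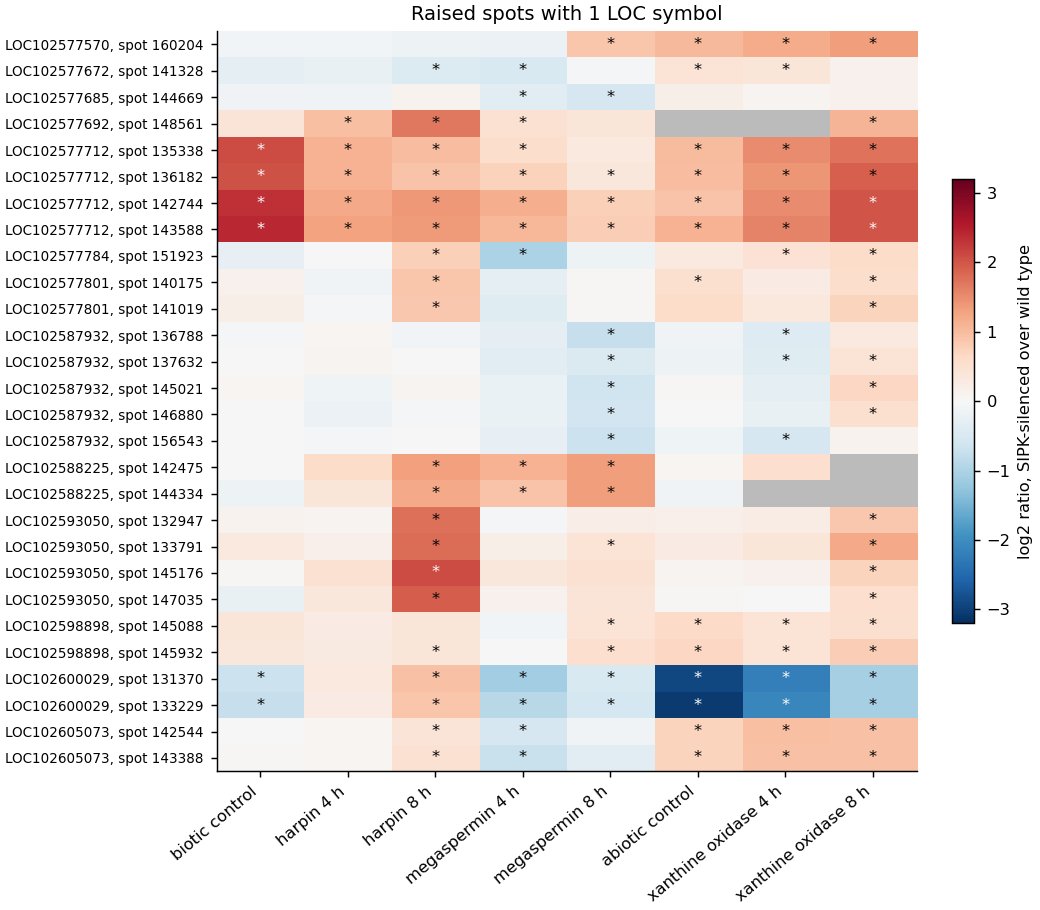
Log2 ratio, SIPK-silenced over wild type (colour), of the 28 raised spots with 1 LOC symbol (rows) in the 8 conditions (columns); an asterisk marks an adjusted p under 0.05 and grey a spot not tested. LOC102577712 is higher in nearly every column, LOC102593050 with harpin at 8 h, and LOC102600029 is lower in the abiotic columns.

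The arrays also allow the 4 h response of silenced cells to be set out, as the wild-type response plus the genotype effect after treatment minus that in the biotic control. These 3 terms use the same wild-type conditions, whether from the same RNA is not stated, and the first chose the spots, so the sums are a description. With harpin the implied response of silenced cells had a median of 1.42, against 1.45 in wild-type cells, and was at 1 or more at 239 of 334 spots and at or below 0 at 8. With megaspermin it had a median of 1.42, against 1.66, and was at 1 or more at 229 and at or below 0 at 21. At spot 144582 the implied response was -0.44 with harpin and 0.07 with megaspermin, against 1.94 and 2.60 in wild-type cells. At 159301 it was 5.40 with harpin and 4.49 with megaspermin, against 4.40 and 3.09.

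For comparison, 520 spots without another symbol had means of -1 or less with both elicitors in wild-type cells. In silenced over wild-type cells the raised spots had medians of 0.30, 0.39 and 0.55 in the abiotic control and with xanthine oxidase at 4 h and 8 h, against -0.46, -0.59 and -0.65 for these lowered spots. With harpin at 8 h the raised spots had 0.39, against -1.30 for the lowered ones, and with megaspermin at 4 h -0.27, against 0.02. With harpin at 4 h the raised spots had 0.01, against -0.29 for the lowered ones, and in the biotic control 0.004, against -0.56. With megaspermin at 8 h they had 0.02, against 0.10. Only there did the medians of raised and lowered spots lie on the same side of 0, though several of the others lay close to 0. Both sets were chosen on wild-type conditions that are the denominators in the biotic control and on the 4 h arrays. How far the choice set the medians apart in those conditions was not tested.

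Spots with a descriptive symbol met the same threshold at 8 of 196: 3 of SS16, 2 of ADH1 (alcohol dehydrogenase), 2 of METK1 (S-adenosylmethionine synthetase) and 1 of PPA1. The ADH1 spots were 3.54 ± 0.25 and 3.44 ± 0.26 with harpin at 8 h in silenced over wild-type cells (adjusted p = 2.56e-12 and 1.81e-11). On a list of 32 defence and stress symbols, chosen with earlier results of these data known, 13 were on the array, at 56 spots. In the biotic control 19 of the 55 tested were higher in silenced cells (against 13.5% of all spots) and 7 lower (against 14%). With harpin at 4 h 15 of 49 were higher (against 14.9%) and 6 lower (against 16.3%). The medians of the list were -0.04 in the biotic control and -0.09 with harpin at 4 h. With megaspermin at 4 h 14 of 48 were higher (against 16.3%) and 7 lower (against 15.6%). The median was 0.21, and 41 and 117 of 334 raised spots were higher and lower. In the abiotic control 36 of the 55 tested were higher (against 10.6%) and 4 lower (against 10.4%), with a median of 0.69. With xanthine oxidase at 4 h 32 of 49 were higher (against 16.1%) and 5 lower (against 17.9%), with a median of 0.67. At 8 h 38 of 49 were higher (against 18%) and 5 lower (against 20%), with a median of 1.12. With harpin at 8 h 18 of 48 were higher (against 23%) and 8 lower (against 21.6%), with a median of 0.05. With megaspermin at 8 h 11 of 53 were higher (against 18.6%) and 18 lower (against 17.9%). The median was -0.26, and 88 and 108 of 332 raised spots were higher and lower.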

How the data were processed

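The 32 arrays of 32448 potato cDNA spots were deposited by the authors as 1 log2 ratio per spot and array. The base of the logarithm, a normalization within each array and the direction, query over reference, are assumed; the sources used here do not give image analysis or normalization. The 30 arrays of the standard orientation were fitted with limma 3.58.1 (R 4.3.3) as 10 group means by spot, with moderated variances, for spots with at least 2 of 3 arrays measured in each group of a contrast. Benjamini-Hochberg adjustment ran over all spots tested in that contrast. Values after ± are standard errors of the fit. The procedure was tested on simulated data. Counts used Python 3.11.15 (pandas 2.3.3, numpy 2.4.6) and figures matplotlib 3.10.9. The p-values measure the spread between portions of pooled cells. Each spot was paired with its duplicate by array layout, which matched all 905 named pairs.

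The members and lists were chosen with earlier results of these data known. Spots were named if they had 1 LOC symbol, were among the 6 with the highest smaller wild-type response, the 2 largest or smallest genotype effects of a condition, or the largest or smallest change from a control, lay next to the threshold, or had another symbol and met it. For wild-type response and genotype effect, only the higher ranked of the duplicate spots of a clone was named. The genotype effects were drawn from called spots with 1 sign on every measured array. Others were chosen after their values were seen. Alternatives were averaged duplicates, centring, scaling (limma's normalizeMedianAbsValues), stricter and no filter, array weights, only the groups compared, a replicate block, a dye term and leaving out each array. No sequences were used.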

Additional observations from a re-analysis of the deposited data

Results flagged for a closer look

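At some raised spots the genotype effect was called in opposite directions in 2 conditions, and the difference between them was called as well by limma (adjusted p under 0.05).

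With harpin higher and with megaspermin lower in silenced cells, there were 12 such spots at 4 h (3.59%, against 0.855% of all spots tested) and 13 at 8 h (3.95%, against 1.46%). At 4 h they included 148542, described above, and 135610 (harpin 1.10 ± 0.17, megaspermin -0.98 ± 0.17; difference 2.08 ± 0.24, adjusted p = 7.41e-06). At 8 h they included both spots of LOC102600029 and spot 134324, which read 0.81, 1.04 and 1.11 with harpin and -0.63, -1.27 and -0.72 with megaspermin. The harpin arrays of 134324 all lay above those of megaspermin (difference 1.86 ± 0.33, adjusted p = 8.48e-05). The reverse, lower with harpin and higher with megaspermin, was called at 3 spots at 8 h (0.912%, against 1.7%). These were 138494 (-0.65 with harpin, 0.42 with megaspermin), 161510 (-0.93 and 0.51) and 163369 (-1.16 and 0.67). The megaspermin calls at 8 h of LOC102600029 and 134324 were lost without the second array, and those of 138494 and 161510 when any 1 of the 3 arrays was left out.

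Between times, 5 spots (1.52%, against 0.986% of all spots) were higher at 8 h and lower at 4 h of harpin, namely 136982, 138614, 143589, 158579 and 160872. All but 136982 of these lost the 4 h call without single arrays. With megaspermin 6 spots (1.81%, against 0.728%) were higher at 8 h and lower at 4 h, among them 143051 (1.02, 1.27 and 1.35 at 8 h, -0.84, -1.27 and 0.23 at 4 h; difference 1.84 ± 0.32, adjusted p = 0.000914) and 148542 (0.72 at 8 h, -0.75 at 4 h). The opposite was called at 1 spot (0.301%, against 0.255%), 142346, at -0.70, -0.44 and -0.41 at 8 h and 0.48, 0.94 and 0.29 at 4 h (difference -1.08 ± 0.20, adjusted p = 0.000674). The 4 h calls of 143051 and 142346 were lost without the second array.

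Between the controls, 4 spots of 3 clones (1.21%, against 0.164% of all spots) were lower in the biotic and higher in the abiotic set: 137246 (-0.89 biotic, 0.50 abiotic), 145737 (-0.66 and 0.38), 157208 (-0.50 and 0.73) and 158052 (-0.40 and 0.74). At each of the 4, 1 of both calls was lost without single arrays. These spots were named after their values were seen, and no cause was tested. The wild-type conditions of the biotic control and of the 4 h arrays helped choose the spots. Their part in these opposite calls was not tested either.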

How the results depend on the processing

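The 41 extreme effects and changes of single spots chosen by the naming rule kept their direction and their side of the threshold under every alternative run for them (515 values). They were picked as the largest already past the threshold, which favoured this outcome in advance, so it does not show how other calls hold. Of 752 other calls at named spots, 464 were kept under every alternative, 288 were lost under at least 1 and 0 were reversed. Of the counts of raised spots and of calls in either direction, 280 stayed under the alternatives within 1.5 times the reported count, while 25 did not. Those 25 follow, and the cause was not tested. The number of raised spots was 216 with all 3 values required, 177 as averaged clones, 182 after scaling and 218 to 364 with single wild-type arrays left out. Calls over the mean of the 8 conditions numbered 146 with a dye term. The change with xanthine oxidase at 4 h was called at 7 spots after scaling, 18 with array weights and 1 as clones. At 8 h it was called at 18 after scaling, 31 with array weights, 1 with only those groups fitted and 3 to 15 with single arrays left out. Biotic minus abiotic control gave 114 after scaling, 135 with array weights, 99 with only those groups fitted and 40 to 49 with single arrays left out. Leaving out single arrays also gave 125 to 174 calls for megaspermin at 8 h, 58 to 92 for megaspermin 8 h minus 4 h, and 54 to 93 for harpin minus megaspermin at 4 h. After scaling, 42.9% of the calls at 4 h of xanthine oxidase and 44.4% at 8 h were upward.

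The replicate numbers do not pair the samples by the labels, and same-numbered arrays deviated together at correlations of -0.52 to 0.45 (median -0.04). With the number as a replicate block the counts were 158 in the biotic control, 190 with harpin at 8 h, 155 with megaspermin at 4 h and 147 in the abiotic control, within 1.5 times those without it. Precision is limited by 3 arrays a group, by spots lacking a value on some arrays, and by a table without spot intensities, so signal over background is unknown.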
